A study of Mus musculus with 16 samples.

Results

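Myosin light chains and their kinases were described here through 8 genes, Myl1, Myl2, Myl3, Myl4, Myl6b, Mylpf, Mylk2 and Mylk4, out of the 21923 genes in the count table. The genes were taken by their symbols and not by their values, and all 8 passed the filter on low counts in every comparison. Myosin, the motor of the muscle fibre, consists of heavy chains whose lever arms are each wrapped by an essential and a regulatory light chain. Fast fibres use the essential chain Myl1 and the regulatory chain Mylpf, whereas slow fibres and the heart ventricle use Myl3 and Myl2. Myl4 is the essential chain of embryonic muscle and the heart atrium, and Myl6b is an essential chain of slow muscle and non-muscle tissue. Mylk2, the skeletal muscle light chain kinase, is switched on by calcium and calmodulin and phosphorylates the regulatory chain, which raises the force of a twitch in fast fibres. Mylk4 belongs to the same kinase family and is less well studied.

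Gastrocnemius, a calf muscle made up mostly of fast fibres, was collected on day 30 from 16 mice, and poly(A) RNA of each mouse gave 1 library. The 4 NOR mice carried no tumor and received PBS in place of tumor cells on day 0 and again daily from day 9. The 4 CAC mice carried LLC (Lewis lung carcinoma) or CT26 (colon carcinoma) tumors and received PBS daily from day 9. Tumor cells had been injected under the skin on day 0. The 4 AM mice carried the same tumors and received amiloride, a diuretic that blocks sodium channels and sodium-proton exchange, at 2 mg/kg daily from day 9. The 4 KD mice carried tumors grown from cells with shRNA against Rab27a and Rab27b, which take part in exosome release, and received PBS. The knock-down was in the tumor cells and not in the muscle, so Rab27 levels in these libraries check nothing about it. In each group, replicates 1 and 2 are labelled C57BL/6, the host of LLC, and replicates 3 and 4 BALB/c, the host of CT26, so that strain and tumor line change together. The mice were adult. The labels give males for C57BL/6 and both sexes for BALB/c, whereas the methods name only males, and the sex of each mouse was not used here.

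Libraries held 35913190 to 61032708 counts, of which the 8 genes took 0.680 to 1.79%. The lowest count of any of the 8 genes in a library was 232, and libraries of the same group differed by a chi-square of 69.3 or more per degree of freedom, a spread between mice far above counting error. The labelled strains were not separated by the data. With group in the model, 0 of 15220 genes differed between them at an FDR of 0.05 with edgeR (248 genes, 1.63%, had an unadjusted p under 0.05) and 0 with DESeq2 (331 genes, 2.17%). In 5 libraries (NOR replicate 1, CAC replicates 1 and 4, KD replicates 2 and 3) the summed level of 9 B and T lymphocyte markers was 1.04 to 3.36 CPM (counts scaled to the same library size), against 30.9 to 364 CPM in the other 11. The same 5 stood apart on the first principal component, the axis of largest spread over all genes kept. They lay at -92.6 to -51.6, against 0.363 to 70.5 in the other 11, and this axis held 38.9% of the variance. What set the 5 apart was not tested, and no AM library is among them. KD replicate 2 also had the highest summed level of 8 slow fibre genes (6788 CPM, against 1317 to 3856 CPM over NOR and CAC) and of 5 erythrocyte genes (21330 CPM). Values without the 5 libraries, a set chosen after seeing the data, are given further below where they change a call, turn a direction or move a value by over 1.5 times. The strain interactions were not refitted without them.

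The 8 genes are protein coding and lie on 8 chromosomes of GRCm38. Myl1 spans 66924295 to 66945404 on chromosome 1, Mylpf 127208890 to 127214298 on chromosome 7, Myl3 110741861 to 110769798 on chromosome 9 and Myl2 122100951 to 122113472 on chromosome 5. Mylk2 spans 152911352 to 152923068 on chromosome 2, Mylk4 32700834 to 32783954 on chromosome 13, Myl4 104550663 to 104595753 on chromosome 11 and Myl6b 128494157 to 128498685 on chromosome 10. Of the 31-base words in Myl1 exons, 14.5% were also found in the pseudogene Mylf-ps, so part of the Myl1 counts could be split with it. Myl3 shared 95 exonic bases with Pth1r and Myl2 60 with Ccdc63, both on the opposite strand, and the other 5 genes shared at most 1.90% of their words with other genes. Counts are per gene and do not separate the longer and the shorter Myl1 chain, which are made from different start sites.

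Promoter windows of 300 bases around a start site, most of them upstream, were matched in RefSeq (GRCm38.p6) for 7 of the 8 genes, giving 8 windows. The E-box CAGCTG, a motif read by the myogenic factors, occurred in 5 of the 8 windows and in 16.3% of all 32851 windows. Of the 5, 2 belong to Myl2, so that 4 of 7 genes hold it, and both Myl2 windows lie 7.71 and 8.18 kb before the GENCODE span of Myl2 given above. The wider E-box CANNTG, which includes CAGCTG, occurred in 7 of 8 windows against 72.3% of all windows, and a TATAAA in 2 of 8 against 13.6%. GTAAACA and TTCNNNGAA, the motifs of FoxO and STAT factors, occurred in 0 of the 8 windows and in 3.65% and 8.3% of all windows, and the MEF2 box in 0 of 8 against 0.557%. The CArG box, the motif of serum response factor, occurred in 1 window, that of Myl3, against 1.63% of all windows. Both strands were searched, and a match is a description of the letters only. The windows of the fast pair Myl1 (chr1:66945007-66945306, minus strand) and Mylpf (chr7:127211358-127211657, plus strand) are printed because their transcripts moved most closely together below, and that of Myl3 (chr9:110763428-110763727, plus strand) for the CArG box. Capitals mark CANNTG and the CArG box.
Myl1: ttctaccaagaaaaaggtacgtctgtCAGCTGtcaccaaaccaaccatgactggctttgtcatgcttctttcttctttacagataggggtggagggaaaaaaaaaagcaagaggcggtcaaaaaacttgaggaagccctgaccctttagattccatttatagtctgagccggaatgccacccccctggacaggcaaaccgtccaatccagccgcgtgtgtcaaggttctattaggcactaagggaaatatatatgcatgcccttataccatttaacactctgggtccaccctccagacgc
Mylpf: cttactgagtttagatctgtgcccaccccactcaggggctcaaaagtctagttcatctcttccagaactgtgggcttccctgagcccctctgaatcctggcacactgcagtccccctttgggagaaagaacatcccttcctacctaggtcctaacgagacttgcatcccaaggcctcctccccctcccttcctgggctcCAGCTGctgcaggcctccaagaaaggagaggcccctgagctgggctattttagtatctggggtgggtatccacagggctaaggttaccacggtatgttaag
Myl3: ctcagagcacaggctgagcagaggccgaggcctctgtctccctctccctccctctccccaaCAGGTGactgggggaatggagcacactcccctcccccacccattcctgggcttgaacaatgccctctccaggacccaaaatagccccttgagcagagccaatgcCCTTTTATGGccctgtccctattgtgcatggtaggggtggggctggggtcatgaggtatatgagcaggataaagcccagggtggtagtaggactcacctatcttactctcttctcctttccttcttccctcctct
The single capital run was CAGCTG in both Myl1 and Mylpf, and the first of the 2 runs of Myl3 was CAGGTG.

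Per transcript length, the fast pair was far above the other 6 genes in normal muscle. Mean FPKM (counts scaled by transcript length and library size) in NOR was 12736 ± 1532 (SD, n = 4) for Mylpf and 9176 ± 659 for Myl1. Myl3 followed at 612 ± 177 FPKM, Mylk4 at 438 ± 225, Myl2 at 354 ± 129 and Mylk2 at 310 ± 30.7, and these 4 levels overlapped between mice except for Myl3 over Mylk2. Myl4 and Myl6b were lowest, at 6.89 ± 0.777 and 6.77 ± 1.38 FPKM, with overlapping values. Myl1 made up 93.7 ± 1.604% of the summed FPKM of the 4 essential chains in NOR, and Mylpf 97.3 ± 0.729% of that of the 2 regulatory chains. Among genes, the essential and regulatory chains that share a fibre type varied together over the 16 libraries, with Pearson's r of log2 CPM of 0.88 for Myl1 and Mylpf and 0.871 for Myl2 and Myl3. Across fibre types r was 0.134 for Myl1 and Myl2, 0.487 for Mylpf and Myl2, 0.524 for Myl1 and Myl3 and 0.738 for Mylpf and Myl3. These r describe 16 libraries that share groups and scaling.

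**Figure D1:**
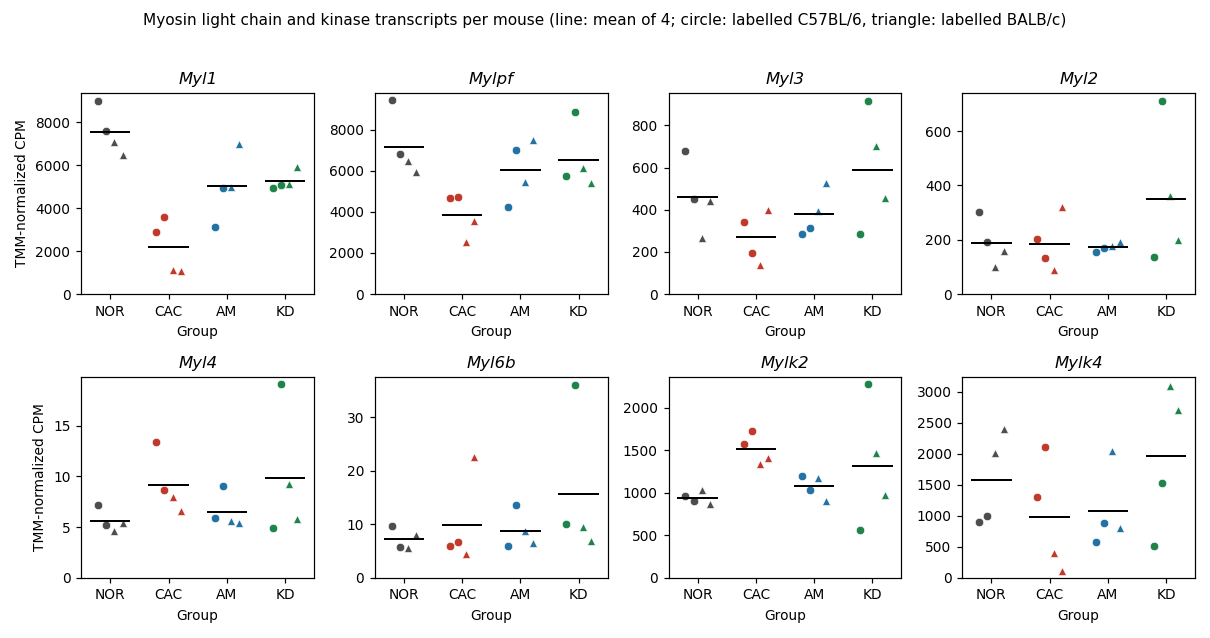
TMM-normalized CPM (vertical axis, starting at 0) of the 8 genes in each mouse by group (horizontal axis), with circles for mice labelled C57BL/6, triangles for those labelled BALB/c and a line at the mean of 4. Myl1 in CAC (1061 to 3615 CPM) lay below NOR (6486 to 8978 CPM), Mylk2 in CAC (1344 to 1727 CPM) lay above NOR (872 to 1037 CPM), and Mylk4 in CAC ran from 109 to 2103 CPM.

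The comparison of CAC with NOR asked how these transcripts differed in the muscle of tumor-bearing mice. In the CAC muscle Myl1 was downregulated and Mylk2 upregulated relative to NOR, so that the most abundant essential chain and the kinase of the regulatory chain went in opposite directions. A gene was called where edgeR's quasi-likelihood test over all genes gave an FDR up to 0.05 and the fold change reached 1.5 or, downward, 0.667, and 9.45% of the 14666 genes tested were called (4.32% higher, 5.13% lower), beside 1 higher and 1 lower of the 8 genes. Of these 8 genes, 4 had an unadjusted p under 0.05, against 29.1% of all genes. The median log2 fold change was -0.36 over the 8 genes and 0.01 over all genes. The former was -0.09 without CAC replicate 3, -0.11 without NOR replicate 1 and -0.46 to -0.25 without any other mouse, and in BALB/c-labelled mice alone it was 0.058.

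Myl1 stood at 8978, 7614, 7069 and 6486 CPM in NOR replicates 1 to 4, after TMM scaling. In CAC it stood at 2896, 3615, 1120.4 and 1061 CPM. Every CAC mouse lay below every NOR mouse, as for 10.5% of all genes, and the 2 CAC mice labelled BALB/c lay lowest. The log2 fold change was -1.80 (SE 0.42, edgeR FDR = 0.0273), a fold change of 0.288. In bulk muscle, fewer fibres of a type and less RNA per fibre cannot be told apart. The call was lost without NOR replicate 1, 2 or 3 or CAC replicate 1 (FDR = 0.0611, 0.0678, 0.0660 and 0.0510), and without the 5 libraries poor in lymphocyte reads, where 3 NOR and 2 CAC mice gave -1.58 (edgeR FDR = 0.142).

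Mylpf, the fast regulatory chain, stood at 9439, 6829, 6481 and 5916 CPM in NOR and at 4670.4, 4715, 2556 and 3542 CPM in CAC. Here too every CAC mouse lay below every NOR mouse. The log2 fold change of -0.89 (SE 0.25) had an edgeR FDR of 0.0512, just outside the limit. It came inside the limit with 3 other scalings, DESeq2, limma-voom, a stricter count filter, the labelled strain as a covariate or all 16 libraries in 1 fit, where the FDR was 0.00139 to 0.0495 and the log2 fold change -0.94 to -0.78.

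Mylk2 stood at 960.1, 906, 1037 and 872 CPM in NOR, the tightest spread of the 8 genes there (a coefficient of variation of 7.63%). In CAC it stood at 1577, 1727, 1344 and 1414 CPM, above every NOR mouse, as for 12.3% of all genes. The log2 fold change was 0.68 (SE 0.13, edgeR FDR = 0.0143), a fold change of 1.604. The call was lost without NOR replicate 2 (edgeR FDR = 0.0525), with the spread of all 16 libraries in 1 fit (0.168) and without the 5 libraries poor in lymphocyte reads (0.0995, at a log2 fold change of 0.71).

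The slow chains and the 2 scarce essential chains were not called. Myl3 was at 678, 452, 268 and 442 CPM in NOR and at 341, 195, 139 and 399.9 CPM in CAC, with overlapping groups (log2 fold change -0.78, SE 0.38, edgeR FDR = 0.217). With a score of the lymphocyte markers as a covariate, chosen after seeing the data, Myl3 was called lower (-1.17, edgeR FDR = 0.00852). Myl2 was at 99.9 to 302 CPM in NOR and 87.2 to 319.6 CPM in CAC, nearly the same range (-0.02, SE 0.44, FDR = 0.982 with edgeR, and 0.11 with total-count scaling). Myl4, the embryonic chain, was at 4.64 to 7.21 CPM in NOR and 6.59 to 13.4 CPM in CAC, where 3 of 4 mice lay above all NOR mice (0.70, SE 0.24, FDR = 0.0927 with edgeR). DESeq2 and total-count scaling called Myl4 higher (FDR = 0.0404 and 0.0322). Myl6b was at 5.62 to 9.75 CPM in NOR and 4.51 to 6.71 CPM in 3 CAC mice, with CAC replicate 4 at 22.6 CPM (0.45, SE 0.50, FDR = 0.616 with edgeR).

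**Figure D2:**
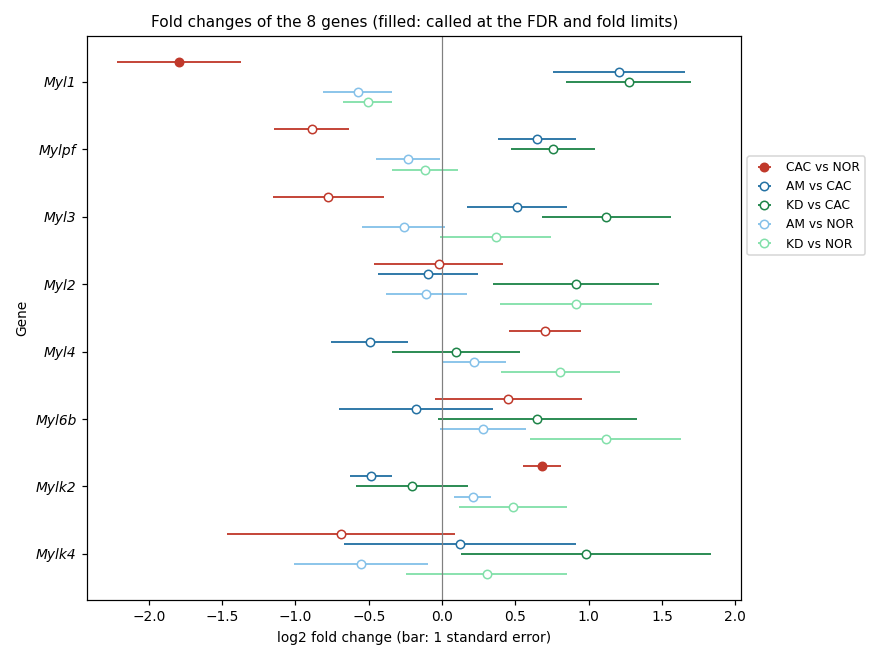
Log2 fold change (horizontal axis, bar of 1 standard error) of each gene (vertical axis) in 5 comparisons, filled where called. Myl1 (-1.80) and Mylk2 (0.68) in CAC vs. NOR are the only filled points of the 40 drawn.

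AM vs. CAC asked what amiloride changed in tumor-bearing mice, and KD vs. CAC what the Rab27 knock-down in the tumor changed. Both use the same 4 CAC mice that CAC vs. NOR used, so that a low or high CAC group enters all of them. None of the 8 genes was called in either comparison with edgeR, against 3.66% of 14674 genes in AM vs. CAC and 0.00685% (1 gene) of 14593 in KD vs. CAC. An unadjusted p under 0.05 was reached by 3 of the 8 genes in each, against 21.7% and 11.1% of all genes. The median log2 fold change of the 8 genes was 0.01 with amiloride and 0.83 with the knock-down, beside 0.01 and 0.00 over all genes. Without KD replicate 2 the second was 0.44. The first was -0.23 without CAC replicate 3, -0.13 without AM replicate 3 and 0.06 to 0.45 without any other mouse.

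Myl1 was at 3122, 4945, 4993 and 7004 CPM in AM, and AM replicate 1 lay below CAC replicate 2. The log2 fold change of AM vs. CAC was 1.21 (SE 0.45, edgeR FDR = 0.165), and only DESeq2 called it (FDR = 0.0304). In KD it was at 4928, 5067, 5119 and 5921 CPM, above every CAC mouse, as for 3.63% of all genes, and below every NOR mouse. The KD vs. CAC log2 fold change of 1.27 (SE 0.43) had an edgeR FDR of 0.347 and a DESeq2 FDR of 0.0433. KD had the smallest spread of Myl1, with a coefficient of variation of 8.53% against 59.1% in CAC.

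Mylpf was at 4235, 7003, 5429 and 7487 CPM in AM (log2 fold change over CAC 0.65, SE 0.26, edgeR FDR = 0.201). In KD it was at 5758, 8877, 6146 and 5389 CPM, above every CAC mouse (0.75, SE 0.29, edgeR FDR = 0.389). The fast pair was thus ordered alike by group means, with NOR first (7537 ± 1066 CPM for Myl1, 7166 ± 1561 for Mylpf), KD second (5259 ± 448, 6542 ± 1587), AM next (5016 ± 1586, 6039 ± 1489) and CAC last (2173 ± 1284, 3871 ± 1031). The KD and AM ranges overlapped for both genes, as did those of AM and CAC, and for Mylpf those of NOR and KD.

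Mylk2 was at 1203, 1036, 1178 and 905 CPM in AM, below every CAC mouse, as were 9.61% of all genes. The log2 fold change of AM vs. CAC was -0.49 (SE 0.14, edgeR FDR = 0.0933), a fold change of 0.714. DESeq2 gave it an FDR of 0.0111 at a log2 fold change of -0.47, short of the fold limit. In KD it was at 560.4, 2283, 1466 and 972 CPM, a wider spread than the whole of the other 3 groups. KD replicate 1 had the lowest and KD replicate 2 the highest Mylk2 level of all 16 mice. The KD vs. CAC log2 fold change was -0.21 (SE 0.38, edgeR FDR = 0.914), and leaving out KD replicate 1 or 2 moved it to 0.04 or -0.61. By group means Mylk2 was ordered CAC (1516 ± 171 CPM), KD (1320.3 ± 741), AM (1081 ± 138) and NOR (944 ± 72.0), and AM and NOR overlapped.

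The slow chains had their highest means in KD. Myl3 was at 284, 315, 396 and 526 CPM in AM and at 284, 915, 701 and 456 CPM in KD, and both groups overlapped with CAC (log2 fold changes 0.51 and 1.12, edgeR FDR = 0.444 and 0.396). Myl2 was at 155 to 189.96 CPM in AM, the narrowest range of any group, and at 136 to 709 CPM in KD (-0.09 and 0.91, FDR = 0.910 and 0.596 with edgeR). KD replicate 2 had the highest Myl2, Myl3, Myl4 and Myl6b level of all 16 mice, and it is the library with the highest slow fibre sum. Leaving it out brought Myl2 from 0.91 to 0.30 and Myl6b from 0.65 to -0.18 in KD vs. CAC. Myl4 was at 5.41 to 9.05 CPM in AM and 4.94 to 19.1 CPM in KD, and Myl6b at 6.00 to 13.6 CPM in AM and 6.84 to 36.1 CPM in KD.

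Against NOR, none of the 8 genes was called in AM or in KD with edgeR, DESeq2 or limma-voom, as was none of 14738 and 14748 genes (0% in each) with edgeR, where 9.19% and 3.54% of genes had an unadjusted p under 0.05. Myl1 was the only member under that unadjusted limit in either comparison. In AM mice it differed by -0.58 on the log2 scale (SE 0.23, FDR = 0.531 with edgeR). In KD mice it differed by -0.51 (SE 0.17, FDR = 0.999 with edgeR), and the 2 groups did not overlap (two-sided exact permutation p = 0.0286, the smallest that 4 against 4 mice allow), as for 0.929% of all genes, counted in this direction. DESeq2 gave Myl1 in KD vs. NOR an FDR of 0.0416 at a fold change that missed the limit. The other 7 genes had log2 fold changes of -0.55 (Mylk4) to 0.28 (Myl6b) in AM vs. NOR and of -0.12 (Mylpf) to 1.11 (Myl6b) in KD vs. NOR.

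Ratios of 2 genes in the same library do not depend on the scaling between libraries. They were taken from FPKM, and 12 comparisons of 4 ratios were tested by two-sided exact permutation. None of the 12 had an adjusted p under 0.05. The smallest exact permutation p that 4 against 4 mice allow is 0.0286, so an adjusted p under 0.05 needed most of the 12 at that value. The adjusted limit therefore decides little about any single ratio. Myl1 to Mylpf was 0.648 to 0.759 in NOR and 0.204 to 0.522 in CAC, so that every CAC mouse lay below every NOR mouse. The difference in mean log2 ratio was -1.09 (SE 0.30, exact permutation p = 0.0286, 0.0858 adjusted over the 12). In AM the ratio was 0.481 to 0.637 and in KD 0.389 to 0.748, both overlapping with CAC (differences of 0.71 each, exact permutation p = 0.0857 each).

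The kinase and its substrate transcript separated CAC from each of the other groups. Mylk2 to Mylpf was 0.0186 to 0.0292 in NOR, 0.0616 to 0.0959 in CAC, 0.0221 to 0.0518 in AM and 0.0178 to 0.0469 in KD. All 4 CAC mice lay above all 12 other mice. Gene by gene, Mylk2 was already higher and Mylpf lower in CAC than in NOR, so this ratio restates those values and adds no separate support. How many other pairs of genes separate CAC in this way was not counted. The log2 difference was 1.59 (SE 0.20) for CAC against NOR, a fold of 3.01. It was -1.14 (SE 0.31) for AM against CAC and -1.15 (SE 0.35) for KD against CAC, and each of the 3 had an exact permutation p = 0.0286, the smallest that 4 against 4 mice allow, and an adjusted p = 0.0858. The same CAC mice enter all 3 differences.

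**Figure D3:**
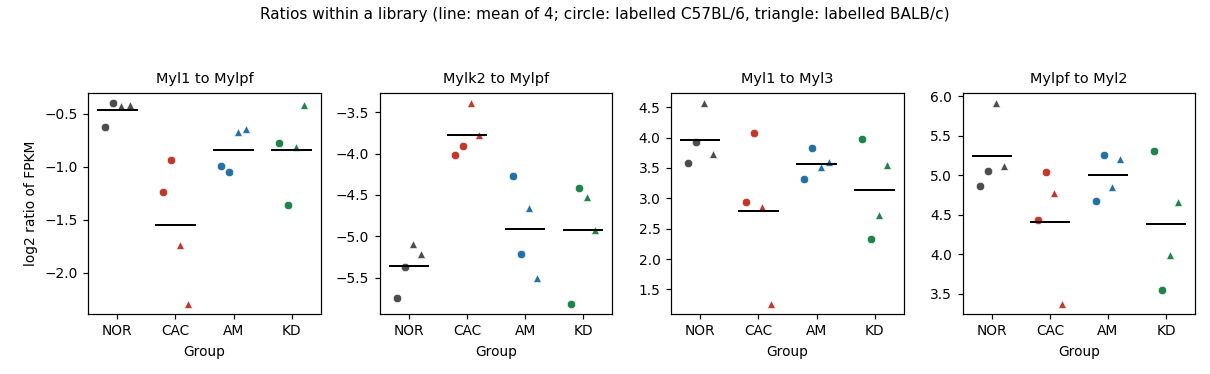
Log2 ratio of FPKM within a library (vertical axis) by group (horizontal axis), with circles for mice labelled C57BL/6, triangles for BALB/c and a line at the mean of 4. Mylk2 to Mylpf in the CAC mice lies above the other groups (mean -3.77, against -5.36 in NOR, -4.91 in AM and -4.92 in KD), and Myl1 to Mylpf in CAC (mean -1.55) lies below NOR (mean -0.47).

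The fast to slow ratios were less even. Myl1 to Myl3 was 12 to 23.9 in NOR and 2.40 to 16.8 in CAC, a log2 difference of -1.17 (SE 0.62, exact permutation p = 0.114). The low end came from CAC replicate 4, and without it the difference was -0.66. Mylpf to Myl2 was 29.2 to 60.6 in NOR and 10.4 to 33.1 in CAC (-0.83, SE 0.43, exact permutation p = 0.0571, adjusted p = 0.137), and without CAC replicate 4 this difference was -0.49. In AM, Myl1 to Myl3 was 9.97 to 14.2 and in KD 5.02 to 15.7, with differences from CAC of 0.78 (SE 0.59, exact permutation p = 0.257) and 0.36 (SE 0.69, exact permutation p = 0.686), and without CAC replicate 4 these were 0.27 and -0.15. Mylpf to Myl2 was 25.6 to 38.3 in AM and 11.7 to 39.6 in KD. Its difference from CAC was 0.59 (SE 0.39, exact permutation p = 0.143) with amiloride (0.245 without CAC replicate 4) and -0.03 (SE 0.53, exact permutation p = 0.971) with the knock-down, where leaving out 1 mouse gave -0.38 (without CAC replicate 4) to 0.245 (without KD replicate 2). As shares, Myl1 was 92.2 to 95.9% of the essential chain FPKM in NOR and 69.5 to 94.04% in CAC, while Mylpf was 96.7 to 98.4% and 91.2 to 97.1% of the regulatory chain FPKM. The Myl4 share was 0.0637 to 0.0781% in NOR and 0.228 to 0.625% in CAC, where the summed essential chain FPKM was 1958 to 4840 against 9054 to 10513 in NOR. Summed regulatory chain FPKM was 11583 to 15281 in NOR and 5922 to 8979 in CAC.

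Without the 5 libraries poor in lymphocyte reads, 3 NOR, 2 CAC, 4 AM and 2 KD mice remained, and none of the 8 genes was called in any of the 5 comparisons with edgeR. Of all genes, CAC vs. NOR then called 2.63%, AM vs. CAC 0.119% and the other 3 comparisons 0%, and 5 and 3 of the 8 genes had an unadjusted p under 0.05 in the first 2, against 23.4% and 16.4% of all genes (0 or 1 in the other 3). In CAC vs. NOR, Myl6b was at -0.20, Myl3 at -1.21 and Myl2 at -0.45 on the log2 scale. In AM vs. CAC, Myl2 was at 0.65, Myl3 at 1.19, Myl6b at 0.64 and Mylk4 at -0.22, and the median of the 8 genes was 0.64. In KD vs. CAC, Mylk2 was at -0.9997, Myl4 at -0.62, Mylk4 at 0.35 and Myl2 at 0.60. Against NOR, Myl2, Myl3, Myl4, Myl6b and Mylpf were at 0.19, -0.03, 0.34, 0.44 and -0.09 in AM and Myl2, Myl3, Myl4, Myl6b, Mylpf, Mylk2 and Mylk4 at 0.16, -0.06, 0.09, 0.41, -0.19, -0.28 and -0.16 in KD. Both AM vs. NOR and KD vs. NOR share the 3 NOR mice. The fast to slow ratios of CAC vs. NOR shrank to -0.61 (Myl1 to Myl3) and -0.45 (Mylpf to Myl2), while Mylk2 to Mylpf differed by 1.59 (exact permutation p = 0.1, the smallest that 2 against 3 mice allow). For that ratio AM against CAC gave -1.27 (exact permutation p = 0.133) and KD against CAC -1.73 (exact permutation p = 0.333, the smallest for 2 against 2).

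Mylk4 varied most of the 8 genes within CAC, by 19.4-fold between the highest and the lowest mouse. It was at 899, 994, 2015 and 2393 CPM in NOR replicates 1 to 4. In CAC it was at 1309, 2103, 394 and 109 CPM. The 2 mice labelled C57BL/6 were thus the lower pair in NOR and the higher pair in CAC. In AM it was at 576, 876, 2043.5 and 803 CPM and in KD at 507, 1529.6, 3091 and 2707 CPM, so that BALB/c-labelled mice were the higher pair again in KD. The pooled CAC vs. NOR log2 fold change was -0.69 (SE 0.78, edgeR FDR = 0.623). It joins log2 ratios of mean CPM of 0.85 in mice labelled C57BL/6 and -3.13 in mice labelled BALB/c.

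The difference between the labelled strains was tested itself, as an interaction over all genes. For Mylk4 in CAC vs. NOR it was -3.98 log2 units (SE 0.83, FDR = 0.558 with edgeR). In AM vs. CAC it was 3.71 (FDR = 0.326 with edgeR) and in KD vs. CAC 4.27 (FDR = 0.854 with edgeR). For Myl1 the log2 ratio of mean CPM in CAC vs. NOR was -1.35 in C57BL/6-labelled and -2.64 in BALB/c-labelled mice, with an interaction of -1.29 (SE 0.30, FDR = 0.630 with edgeR). Myl1 in AM vs. CAC was 0.31 and 2.46, an interaction of 2.15 (FDR = 0.269 with edgeR). The unadjusted p was under 0.05 for Mylk4 and Myl1 in all 3 comparisons. In each comparison 0 genes passed the FDR limit (0%), while 4.89%, 12.4% and 5.65% of genes had an unadjusted p under 0.05. Without CAC replicate 3, the Mylk4 interaction in CAC vs. NOR was -5.24. CAC replicate 4 alone then stands for the BALB/c-labelled CAC mice, so that no FDR is given. With 2 mice per strain and group, and the strain changing with the tumor line, the 2 cannot be told apart.

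Calm2, a gene for calmodulin, which the kinase needs, was called in CAC vs. NOR and AM vs. CAC. It fell from 233 ± 32.9 CPM in NOR to 120.5 ± 11.95 CPM in CAC (log2 fold change -0.95, SE 0.13, edgeR FDR = 0.00461). Calm2 rose to 203 ± 26.5 CPM in AM (AM vs. CAC 0.76, SE 0.12, edgeR FDR = 0.0153), while KD, at 213 ± 12.9 CPM, was not called (0.82, edgeR FDR = 0.139). Calm3 had log2 fold changes of -0.74, 0.66 and 0.67 in the same order of comparisons (edgeR FDR = 0.0580, 0.126 and 0.378). None of 4 light chain phosphatase genes was called. The catalytic subunit Ppp1cb had log2 fold changes of 0.30, -0.44 and -0.19 (edgeR FDR = 0.138, 0.145 and 0.846).

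The other light chains and kinases showed no called gene in these 3 comparisons with edgeR, where 0, 1 and 1 of them had an unadjusted p under 0.05. Of 8 listed, 7 were tested, since Myl7, the atrial regulatory chain, was at a mean of 0.00786 CPM in CAC and 0 CPM in NOR, AM and KD. Their medians were -0.10, -0.13 and 0.10 on the log2 scale, of which the first and the last turned to 0.02 and -0.004 with total-count scaling, and the 3 were -0.002, 0.04 and -0.09 without the 5 libraries poor in lymphocyte reads. Mylk, the smooth muscle and non-muscle kinase, differed by 0.18, -0.18 and -0.21, and Mylk3, the heart kinase, by -0.44, 0.95 and 1.11 (FDR = 0.424 in the last with edgeR). The regulatory chains of smooth muscle and non-muscle cells, Myl9, Myl12a and Myl12b, had log2 fold changes of -0.24, 0.51 and 0.16 in CAC vs. NOR.

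Fibre type genes other than light chains were counted beside the members. Of 11 fast fibre genes, 1 was called lower in CAC vs. NOR, Casq1, the calcium store protein of fast fibres (-2.26, SE 0.37, edgeR FDR = 0.00858), and 9 of 11 had a negative log2 fold change. The median was -0.20, and -0.49 (without CAC replicate 4) to -0.08 (without CAC replicate 3) with 1 mouse left out. Casq1 was also called higher in AM vs. CAC (1.72, edgeR FDR = 0.0484). Pvalb, the calcium buffer, and Tnnc2, the fast troponin C, had log2 fold changes of -1.45 and -0.81 in CAC vs. NOR (edgeR FDR = 0.0848 and 0.0769). The fast myosin heavy chain Myh4 had -0.76 and Myh1 -0.10 (edgeR FDR = 0.251 and 0.861), so that the heavy chains were not called where Myl1 was. Of 8 slow fibre genes 0 were called in any of the 3 comparisons with edgeR (1, 1 and 0 at an unadjusted p under 0.05), with medians of 0.15, -0.09 and 0.73. With 1 mouse left out these medians were -0.18 (without CAC replicate 4) to 0.40, -0.33 to 0.21 (without CAC replicate 4) and 0.06 (without KD replicate 2) to 0.998, and without the 5 libraries they were -0.60, 0.91 and 0.56.

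**Figure D4:**
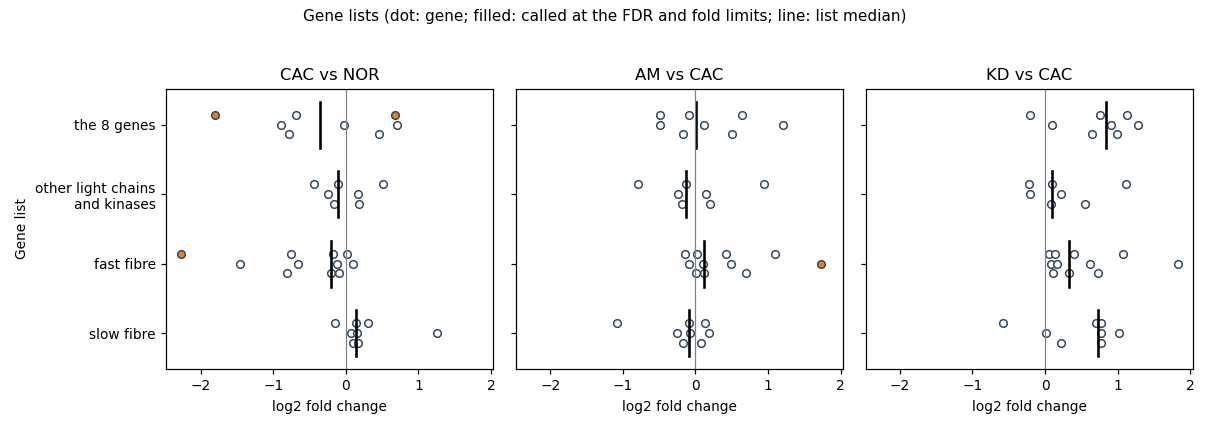
Log2 fold change (horizontal axis) of each gene (dot, filled where called) in 4 gene lists (vertical axis), with 1 panel for each of the first 3 comparisons and a line at the list median. Casq1 (-2.26) is filled beside Myl1 and Mylk2 in CAC vs. NOR, and the slow fibre median is 0.15, -0.09 and 0.73 from left to right.

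Markers of other cells moved with the groups too. The summed level of 5 erythrocyte genes was 1049 to 1359 CPM in NOR and 3628 to 8615 CPM in CAC, and that of 6 neutrophil genes 3.62 to 21.6 CPM and 82.5 to 182 CPM. All 5 erythrocyte genes and 3 of 6 neutrophil genes were called higher in CAC vs. NOR. The summed level of 6 muscle identity genes was 71240 to 109800 CPM in NOR and 37480 to 75080 CPM in CAC, and among them Des, the muscle intermediate filament gene, was called higher (1.05, edgeR FDR = 0.0117) and none lower. None of 6 macrophage, 5 adipocyte or 9 lymphocyte genes was called, and 2 of 5 tendon genes, 1 of 6 smooth muscle genes and 1 of 5 developmental genes tested (Actc1) were called lower, with Myog called higher. In AM vs. CAC, Des was called lower (-0.92, edgeR FDR = 0.0205) and the same 2 tendon genes, Tnmd and Fmod, higher (2.49 and 1.37, edgeR FDR = 0.0111 and 0.0398). Erythrocyte sums were 961 to 15870 CPM in AM and 2178 to 21330 CPM in KD, and neutrophil sums 9.53 to 165 CPM and 11.1 to 234 CPM. The list medians against NOR were 2.45 and 2.80 for erythrocyte genes and 2.78 and 3.61 for neutrophil genes, in AM and KD, with no gene called with edgeR (5 of 5 and 5 of 5 erythrocyte genes, and 5 of 6 and 6 of 6 neutrophil genes, at an unadjusted p under 0.05). None of 3 heart genes tested was called. The part of these in the light chain results was not tested.

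For each of the 8 genes, the gene with the most similar log2 CPM over the 16 libraries was found among 13180 genes with a mean of at least 1 CPM. Mylpf was closest to Tnnc2, the fast troponin C (r = 0.942), and Myl2 to Tnnc1, the slow troponin C (r = 0.945). Myl1 was closest to Mdga1 (r = 0.979), with the fast calcium store gene Casq1 at r = 0.970. Myl3 was closest to Sdhc (r = 0.902), with the slow heavy chain Myh7 next (r = 0.899). Myl4, Myl6b, Mylk2 and Mylk4 were closest to Csnk2b (r = 0.914), Snx21 (r = 0.869), Stk11 (r = 0.947) and Tigar (r = 0.884). These r are descriptions over 16 libraries that share groups, depth and scaling.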

How the data were processed

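Gastrocnemius poly(A) RNA of 16 mice was sequenced by the authors, 4 libraries in each of NOR, CAC, AM and KD. The submitters' processing notes name fastp, Bowtie2, HISAT2, StringTie 1.3.1 and the builds mm9 and GRCm38 without their roles, and strandedness is not given in the sources used here. The authors deposited 1 table with raw counts per gene and FPKM values, and every column was mapped to its mouse by name. Each library is taken as 1 mouse, and p-values measure the spread between these libraries.

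Each pair of groups was compared on its 8 libraries by the quasi-likelihood F test of edgeR 4.0.16 in R 4.3.3, after TMM scaling and filterByExpr (minimum count 10, minimum total 15), with Benjamini-Hochberg adjustment over all genes tested. NOISeq, which the authors used, was not installed. Pearson's r used log2 CPM with a prior count of 2. FPKM as deposited served for levels and for ratios within a library, with no pseudocount. limma 3.58.1, DESeq2 1.42.0 and other scalings, filters, covariates and samples were alternatives. The test was tried on simulated counts first. Positions and shared words come from GENCODE M21 (GRCm38) and promoters from RefSeq. Figures were drawn with Python 3.11.15 and matplotlib 3.10.9. The text names all 8 genes, genes of the lists, and the gene most similar to each of the 8. Of the list genes, 1 is not reported here. The genes, lists and tests were chosen with earlier results of these data known.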

Additional observations from a re-analysis of the deposited data

Results flagged for a closer look

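In 3 of the 32 groups of 4 mice (8 genes in 4 groups), 1 mouse stood apart from the other 3 by more than Dixon's critical ratio for 4 values, and chance flags about 1 in 20 groups. AM replicate 2 had 9.05 CPM of Myl4, against 5.41 to 5.84 CPM in the other 3 AM mice. CAC replicate 4 had 22.58 CPM of Myl6b, and KD replicate 2 had 36.06 CPM of Myl6b. Both of these are among the 5 libraries with few lymphocyte reads, and KD replicate 2 also has the highest slow fibre sum. The part of either in the Myl6b level was not tested.

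Mylk4 went opposite ways in the labelled strains. In CAC vs. NOR both CAC mice labelled C57BL/6 lay above both NOR mice of that label, and both labelled BALB/c lay below, so that the log2 fold changes differed by -3.983 (FDR = 0.558 with edgeR, over all genes). In AM vs. CAC both AM mice labelled C57BL/6 lay below the CAC mice and both labelled BALB/c above, a difference of 3.711 (FDR = 0.326 with edgeR). Neither interaction passed the limit over all genes. Strain, tumor line and replicate number cannot be told apart here.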

How the results depend on the processing

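In CAC vs. NOR, 2 of the 8 genes were called lower with RLE, upper-quartile or total-count scaling, a stricter count filter, DESeq2, limma-voom, the labelled strain as a covariate, or all 16 libraries in 1 fit, since Mylpf joined Myl1. Of all genes, 4.22 to 7.38% were called lower under these settings, against 5.13% with TMM scaling. With a lymphocyte score as a covariate 3 were, against 6.93% of all genes. DESeq2 and total-count scaling called 2 higher (Myl4 and Mylk2), against 5.72% and 6.54% of all genes. All 16 libraries in 1 fit called 0 higher (3.39% of all genes), and C57BL/6-labelled mice alone, BALB/c-labelled mice alone, and the set without the 5 libraries poor in lymphocyte reads called 0 in either direction (1.69%, 0% and 2.63% of all genes). DESeq2 called 1 gene higher, Myl1, in AM vs. CAC and 1, again Myl1, in KD vs. CAC (4.36% and 1.62% of all genes higher). The lymphocyte score and the set without 5 libraries were chosen after seeing the data. Leaving out each mouse in turn gave 0 to 1 called higher and 0 to 1 called lower in CAC vs. NOR. Of all genes, 2.32 to 4.01% were called higher and 2.6 to 4.89% lower in these refits. The count of calls in the other comparisons did not change in these refits.

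The log2 fold changes that changed sign were of genes not called with edgeR in the same comparison. Mylk2, called in CAC vs. NOR, is among them in other comparisons. Myl2 in CAC vs. NOR was 0.11 with total-count scaling, 0.043 with the strain covariate, and 0.64 in BALB/c-labelled mice. Myl6b was -0.25 in C57BL/6-labelled mice, -0.033 with the lymphocyte score and -0.20 without the 5 libraries, and Mylk4 was 0.89 in C57BL/6-labelled mice. In AM vs. CAC, Myl2 was 0.072 with limma-voom, 0.53 with the lymphocyte score and 0.65 without the 5 libraries. Myl6b was 0.64 in C57BL/6-labelled mice, 0.53 with the score and 0.64 without the 5 libraries, and Mylk4 was -1.23 in C57BL/6-labelled mice and -0.22 without the 5 libraries. In KD vs. CAC, Myl4 was -0.081 with total-count scaling, -0.083 with limma-voom, -0.092 with the score and -0.62 without the 5 libraries, Mylk4 was -0.73 in C57BL/6-labelled mice and Myl6b -0.76 in BALB/c-labelled mice. In AM vs. NOR, BALB/c-labelled mice gave 0.47 for Myl2, 0.35 for Myl3 and 0.040 for Mylpf. Without the 5 libraries, Myl2 was 0.19 in AM vs. NOR, and Myl3, Mylk2 and Mylk4 were -0.056, -0.28 and -0.16 in KD vs. NOR. The cause of these changes was not tested.

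Leaving out each mouse in turn gave -0.42 to 0.30 for Myl2 and -0.35 to 0.71 for Myl6b in CAC vs. NOR. With amiloride the AM vs. CAC ranges were -0.33 to 0.30 for Myl2, -0.48 to 0.62 for Myl6b and -0.37 to 0.83 for Mylk4. In KD vs. CAC they were -0.46 to 0.34 for Myl4, -0.18 to 1.46 for Myl6b and -0.61 to 0.042 for Mylk2. They were -0.32 to 0.19 for Myl2 and -0.029 to 0.44 for Myl6b in AM vs. NOR, and -0.30 to 0.018 for Mylpf in KD vs. NOR.

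The difference in log2 Myl1 to Mylpf ratio was -0.58 in C57BL/6-labelled and -1.59 in BALB/c-labelled mice for CAC vs. NOR, 0.066 and 1.36 for AM vs. CAC and 0.020 and 1.40 for KD vs. CAC, and that of Myl1 to Myl3 was -0.25 and -2.09 for CAC vs. NOR. The median of the developmental muscle list in CAC vs. NOR was 0.60 with no count filter and 0.59 with all 16 libraries in 1 fit, and that of the heart muscle list 1.63 with no count filter, where other genes enter. With 1 mouse left out, the CAC vs. NOR medians were -0.15 to 0.74 (developmental), 1.88 to 2.45 (erythrocytes), 2.66 to 4.04 (neutrophils) and -0.28 to 0.43 (heart). They were -0.41 to 0.11 (developmental) in AM vs. CAC, and -0.74 to 0.87 (erythrocytes) and -0.35 to 0.80 (heart) in KD vs. CAC.

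Without the 5 libraries the CAC vs. NOR medians were -0.60 (slow fibre), -1.33 (tendon) and -0.23 (heart), those of AM vs. CAC 0.91 (slow fibre), 0.46 (fast fibre) and 1.34 (tendon), and those of KD vs. CAC -0.54 (erythrocytes), 1.52 (tendon) and 1.04 (heart), and the log2 Mylk2 to Mylpf ratio of KD vs. CAC differed by -1.73.

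Total-count scaling moved the median of all genes to 0.14 in CAC vs. NOR and to -0.11 in KD vs. CAC, and Myl1 and Mylk2 kept their calls under it. Of all called genes, 45.7% were higher in CAC vs. NOR, against 36.3% with upper-quartile and 60.8% with total-count scaling, and 44.5% in AM vs. CAC against 54.6% with upper-quartile and 38.8% with total-count scaling.

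Deviations from the group means correlated between same-numbered mice at r = 0.601, 0.13, 0.338 and -0.189 in CAC vs. NOR and at -0.636 to 0.421 in the other comparisons. In no comparison were all 4 above 0.1, so the numbers were not taken to pair the mice. With the replicate number as a block, Myl2 and Myl6b in AM vs. CAC were 0.060 and 0.098 and Myl4 in KD vs. CAC -0.054, and 1 gene each was called higher and lower in CAC vs. NOR, Mylk2 at 0.68 and Myl1 at -1.998. No other call of the 8 genes changed with the block, and of all genes 7.77% were called in CAC vs. NOR and 0% in AM vs. CAC with it. The lowest count of any of the 8 genes in a library was 232, and depth was not varied.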
